A study of Homo sapiens with 6 samples.

Results

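The genes described here are 38 genes of homologous recombination and the Fanconi pathway, taken by symbol from a fixed list of pathway members. The list was not filtered by their values, but it was chosen with earlier results of these data known. All 38 were among the 12486 genes listed in the deposited table, and all 38 were among the 12276 genes tested. The cells were K562, an established line from human chronic myeloid leukemia with the Bcr-Abl fusion and an erythroid character, and their RNA was sequenced. They stably expressed an shRNA delivered by lentivirus, either against luciferase (sh-luc, the control) or against a long noncoding RNA that the sample labels call lncRNA-up91 and the study calls lncRNA-IUR1 (sh-IUR1). Each group had 3 libraries, one without a replicate number and 2 labelled r1 and r2, from cells the methods describe as independent groups. The level of the target itself was not analysed here. The comparison asks whether the RNA levels of these repair genes differed between knockdown and control cells.

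Homologous recombination repairs double-strand breaks and collapsed replication forks by copying the sister chromatid, so the pathway works mainly while DNA is replicated and before mitosis. The Fanconi pathway removes crosslinks between the DNA strands: a core complex attaches ubiquitin to FANCD2 and FANCI, nucleases cut the crosslink free, and recombination restores the fork. BCR-ABL leukemia cells are known to carry replication stress and DNA breaks, and these genes are among those through which such cells tolerate them.

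The label of the cells was checked first. The fetal globin genes HBG1 and HBG2 were at 1089 to 1600.4 and 2559 to 3565 FPKM (fragments mapped to a gene, scaled to the length of its transcript and the size of the library), and the erythroid regulator GATA1 was at 182.3 to 200.4 FPKM. All 12 erythroleukemia markers were in the table, and the one with the lowest level, ALAS2, was at 6.51 to 7.75 FPKM. Of 8 lymphocyte and monocyte markers, 6 were in the table, with CD3E at no more than 0.18, CD79A at no more than 0.23 and NKG7 at no more than 0.74 FPKM, while CD3D was at 3.51 to 4.96 and LYZ at 107.0 to 118.7 FPKM. The FPKM of all genes in the table summed to between 579820 and 606240 per library. One library stood apart: along the first principal component, which held 59.3% of the variance, the unnumbered sh-luc library was at -19.8 and the other 5 were between -3.75 and 13.0. Genes of the integrated stress response moved with it. The mean log2(FPKM + 1) of 24 such genes was 5.41 in the unnumbered sh-luc library and 6.11 to 6.57 in the other 5. With all libraries 24 of these 24 had a higher mean in sh-IUR1 (median log2 fold change 0.3299), and without that library 22 did (median 0.0534).

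Promoter sequence is one property that the choice of genes did not use. Factors of the E2F family drive genes of the S phase and bind sites of the type TTTCCCGC, TTTGGCGC, TTTCGCGC or TTTGCCGC. These letters were searched on both strands in RefSeq promoters of GRCh38.p14 that span 250 bases before to 50 bases after the start of one RefSeq transcript per gene. A promoter was given for 34 of the 38 genes, and 6 of the 34 (17.6%) held such a site, against 5.58% of the 10088 promoters of genes in the table and 3.33% of 27305 promoters overall. The 6 genes were EXO1, FANCA, FANCC, FANCD2, TOPBP1 and XRCC2. The CCAAT box, searched as CCAAT, was found in 14 of the 34 (41.2%) and in 37.1% of the promoters of genes in the table. The cell cycle homology region, searched as TTTGAA or TTCGAA, was found in 3 (8.82%) and in 11.4%. A match is a description of the letters and not a bound site, and the start used need not be the one used in K562 cells. For 24 of the 34 genes that start was the outermost end of the gene's RefSeq span, and for 10 it lay 14 to 41428 bases inside it. EXO1 was one of the 10, at 218 bases inside, and BRCA1 was one of the 24. Neither position shows which start is used in these cells. The matches within 50 bases of the start, those nearest to where transcription begins, are shown with their surroundings in 60 bases, read 5′ to 3′ on the strand of the gene, with the match in capitals. The windows are chr1:241848182-241848241 (EXO1, plus strand), chr9:95317722-95317781 (FANCC, minus strand), chr3:10026409-10026468 (FANCD2, plus strand), chr3:133661915-133661974 (TOPBP1, minus strand) and chr7:152676092-152676151 (XRCC2, minus strand).
EXO1: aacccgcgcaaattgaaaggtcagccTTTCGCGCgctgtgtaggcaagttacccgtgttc
FANCC: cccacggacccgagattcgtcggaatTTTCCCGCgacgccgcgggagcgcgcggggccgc
FANCD2: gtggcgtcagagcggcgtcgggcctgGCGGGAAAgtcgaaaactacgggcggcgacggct
TOPBP1: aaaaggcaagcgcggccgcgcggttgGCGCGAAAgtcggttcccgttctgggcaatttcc
XRCC2: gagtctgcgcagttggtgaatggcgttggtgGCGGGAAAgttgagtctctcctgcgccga

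The 38 genes spanned a wide range of levels. Their median mean level was 12.1 FPKM, and that of all genes tested was 10.6 FPKM. A mean over 20 FPKM was measured for 13 genes, 5 to 20 FPKM for 16 and under 5 FPKM for 9. RAD51C was the highest, with every library (73.96 to 90.48 FPKM) above every library of CHEK1 (49.54 to 52.35 FPKM), which in turn lay above RMI2 (35.35 to 43.33 FPKM). RMI2 and RAD54L (33.68 to 38.94 FPKM) overlapped. At the other end were BRCA2 (0.75 to 1.10 FPKM), FANCM (0.86 to 1.42 FPKM) and FANCB (1.81 to 2.74 FPKM), and BRCA2 and FANCM overlapped. The ratio between the highest and the lowest library of a gene was between 1.06 (CHEK1) and 1.65 (FANCM). The range across the 38 genes far exceeded that between libraries of any one gene, while genes of similar level overlapped.

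**Figure D1:**
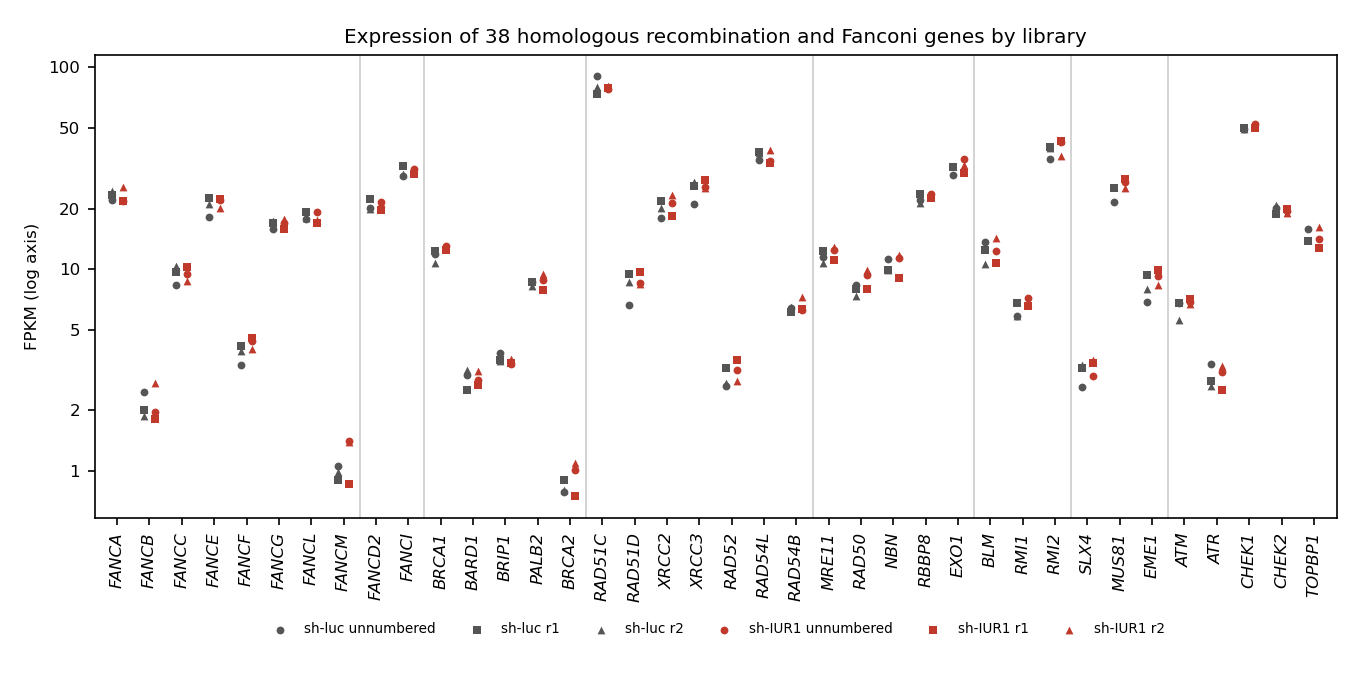
FPKM of the 38 genes in each library on a log axis, with sh-luc in grey and sh-IUR1 in red, and the symbol shape giving the replicate label. Vertical lines separate, from left to right, the Fanconi core complex, FANCD2 and FANCI, the BRCA proteins and the helicase, recombinase partners, end resection, dissolution, nucleases, and checkpoint kinases with TOPBP1. The libraries of a gene lie close together, and the 38 genes range from 0.75 FPKM for BRCA2 to 90.48 FPKM for RAD51C.

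No gene of the list passed the test between sh-IUR1 and sh-luc. Differences were tested with limma on log2(FPKM + 1), fitted over all 12276 genes with Benjamini-Hochberg adjustment. With an adjusted p under 0.05, 0 of the 38 genes were called, as were 0 of all genes tested (0%), of which 203 were higher and 122 lower in sh-IUR1 at an unadjusted p under 0.05. The smallest adjusted p among the 38 was 0.930 and the largest 0.996. At that looser threshold 0 of the 38 genes were higher in sh-IUR1, against 1.65% of all genes tested, and 0 of 38 lower, against 0.994%. The log2 fold changes of FPKM + 1 were between -0.0490 and 0.1809, and their standard errors between 0.0549 and 0.121. For 9 of the 38 genes the change exceeded its standard error, which was the case for 36.3% of all genes. The 95% confidence intervals of the 38 changes lay between -0.2578 and 0.4159, and for 28 genes the whole interval was within 0.3 of 0.

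The sign of these small differences was uneven. The log2 fold change was above 0 for 30 of the 38 genes (78.9%), against 58.0% of all genes tested. The median was 0.0545 for the 38 genes and 0.0186 for all genes tested, a gap of 0.0359. With median-ratio scaling 25 of the 38 were above 0, against 50.7% of all genes, and with quantile normalization 23, against 49.0%. Without the unnumbered sh-luc library the count was 25, against 52.7%. It was 21, against 56.3%, without sh-IUR1 r2, where the gap between the medians was 0.0119, and 33, against 59.3%, without sh-IUR1 r1, where the gap was 0.0527. Of the 38 genes, 14 had their highest value in sh-IUR1 r2 and 0 their lowest, where 12.3% and 9.77% of all genes did. These genes share the same 6 libraries and are not replicates of the comparison, so no p was computed for the list.

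**Figure D2:**
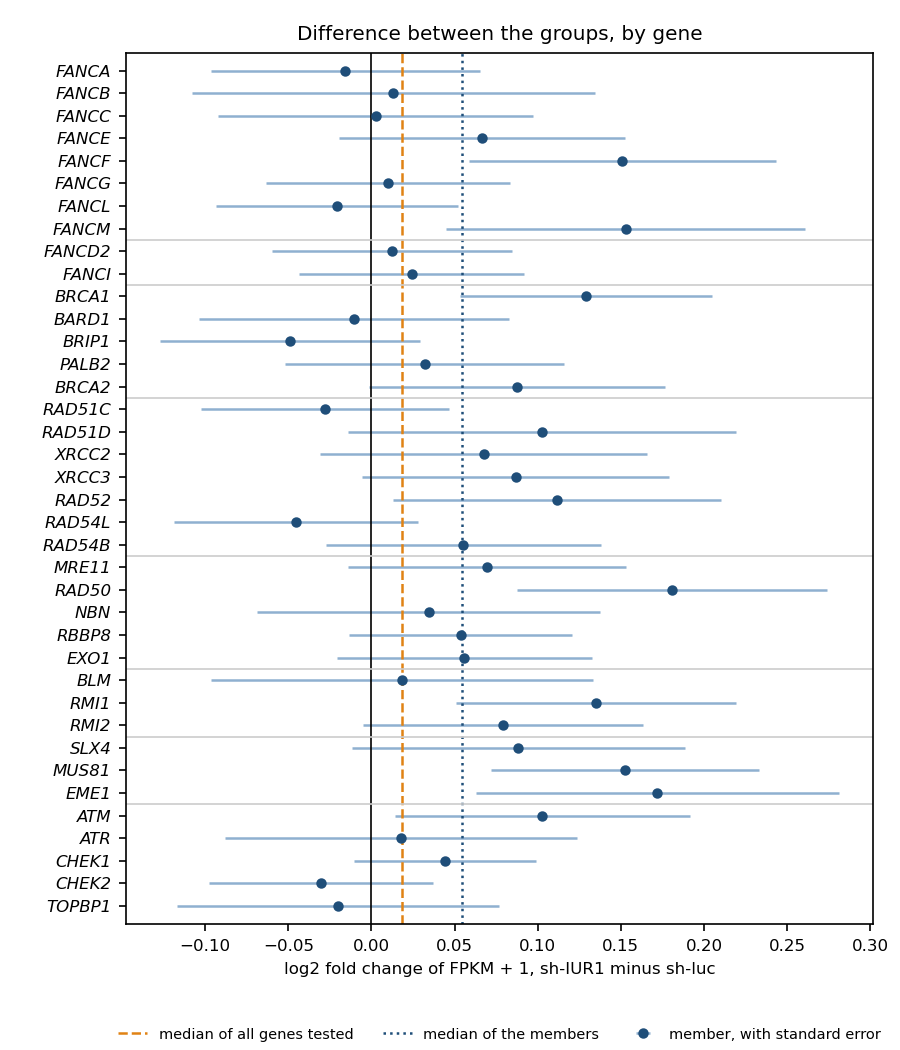
Log2 fold change of FPKM + 1 for each of the 38 genes, sh-IUR1 minus sh-luc, with bars for the standard error from limma. Horizontal lines separate the roles, and the dashed and dotted lines mark the median of all genes tested (0.0186) and of the 38 genes (0.0545). Points for 30 genes lie to the right of 0, none of them called.

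BRCA1 was the only gene of the list whose groups did not overlap. It encodes the ubiquitin ligase subunit that promotes end resection and the loading of the recombinase. RefSeq places it on chromosome 17 from 43044295 to 43170327. BRCA1 was at 11.90 (unnumbered), 12.32 (r1) and 10.72 (r2) FPKM in sh-luc and at 13.12, 12.52 and 12.79 FPKM in sh-IUR1. The lowest knockdown value exceeded the highest control value, with means of 11.6 ± 0.830 and 12.8 ± 0.30 FPKM (SD, n = 3 each). Among 38 genes this is 2.63%, below the 4.04% of all genes tested that had sh-IUR1 above sh-luc without overlap, and 0 of 38 had sh-IUR1 below, against 3.03%. The difference on the log2 scale was 0.1288 (95% interval -0.0405 to 0.2981, unadjusted p = 0.121, adjusted p = 0.930, limma). The groups of BRCA1 stayed apart under each scaling. Leaving out a library cannot make such groups overlap, but it changed the difference, which was 0.0750 without sh-luc r2. RefSeq lists a pseudogene, BRCA1P1, and the gene NBR2 at places that overlap the span of BRCA1, so its value is uncertain to the extent that reads were shared.

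BRCA1 works as a pair with BARD1, and is joined to BRCA2 by PALB2, while the helicase BRIP1 binds its C-terminus. BARD1 was at 2.99, 2.53 and 3.18 FPKM in sh-luc and 2.82, 2.66 and 3.12 FPKM in sh-IUR1. The groups overlapped, and BRCA1 RNA exceeded that of BARD1 by 3.37 to 4.87 times. BRCA2, which loads the recombinase onto DNA, was at 0.79, 0.91 and 0.81 FPKM in sh-luc and at 1.02, 0.75 and 1.10 FPKM in sh-IUR1. Its highest values were in sh-IUR1 and so was its lowest, in r1. BRCA2 had a log2 fold change of 0.0875 (adjusted p = 0.930, limma). With a pseudocount of 0.1 in place of 1, a scale that compresses low genes less, it was 0.1606. The value moved with single knockdown libraries, to 0.0343 without r2 and 0.1659 without r1. BRIP1 was at 3.85, 3.56 and 3.50 FPKM in sh-luc and 3.40, 3.45 and 3.59 FPKM in sh-IUR1. It had the lowest log2 fold change of the 38 genes, -0.0490 (95% interval -0.2238 to 0.1257, adjusted p = 0.944, limma), which was -0.0162 without the unnumbered sh-luc library. PALB2 lay between 7.89 and 9.49 FPKM, with both extremes in sh-IUR1.

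Among the genes of end resection, which trims the break to single-stranded DNA, RAD50 had the smallest unadjusted p of the list. RAD50 is the ATPase of the complex with MRE11 and NBN that senses and tethers broken ends, and lies on chromosome 5 from 132556977 to 132646349. It was at 8.34, 7.98 and 7.41 FPKM in sh-luc and at 9.41, 7.99 and 9.98 FPKM in sh-IUR1. The groups overlapped through sh-IUR1 r1, which was below the unnumbered sh-luc library. RAD50 had a log2 fold change of 0.1809 (95% interval -0.0274 to 0.3893, unadjusted p = 0.0817, adjusted p = 0.930, limma), and 0.12 without sh-IUR1 r2. MRE11, the nuclease of the complex, was at 11.52, 12.39 and 10.78 FPKM in sh-luc and 12.51, 11.14 and 12.91 FPKM in sh-IUR1. NBN, which recruits ATM, was at 11.30, 9.92 and 9.92 FPKM in sh-luc and 11.34, 9.03 and 11.73 FPKM in sh-IUR1. In all 3 subunits sh-IUR1 r1 was the lowest of its group. Within the control libraries the ratio of RAD50 to NBN was 0.738, 0.804 and 0.747, and within the knockdown libraries it was 0.830, 0.885 and 0.851. This was the only one of 9 ratios between partner genes whose groups did not overlap, and it was singled out after its values were seen. Several of the 9 ratios share a gene, and the share of other gene pairs without overlap was not computed. RBBP8, which encodes the resection factor CtIP, and the exonuclease EXO1 had group means of 22.4 and 23.2 FPKM and of 31.3 and 32.7 FPKM. All 5 resection genes had a log2 fold change above 0, as did 58.0% of all genes tested, and they share the same libraries. In each of the 5, sh-IUR1 r1 was the lowest knockdown library. With limma 0 of 5 were called, also at an unadjusted p under 0.05.

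The structure-specific nucleases cut joined DNA molecules. MUS81 and its partner EME1 form one nuclease, and SLX4 is the scaffold that assembles several. MUS81 (chromosome 11, 65859674 to 65867653) was at 21.51, 25.18 and 25.45 FPKM in sh-luc and at 27.05, 28.07 and 25.24 FPKM in sh-IUR1. Of the knockdown libraries, only r2 was within the range of the controls. Its log2 fold change was 0.1523 (95% interval -0.0276 to 0.3322, unadjusted p = 0.0884, adjusted p = 0.930, limma), and 0.0772 without the unnumbered sh-luc library. EME1 was at 6.91, 9.42 and 8.02 FPKM in sh-luc and 9.32, 9.96 and 8.40 FPKM in sh-IUR1. SLX4 was at 2.61, 3.24 and 3.36 FPKM in sh-luc and 2.96, 3.45 and 3.55 FPKM in sh-IUR1. The unnumbered sh-luc library was the lowest of the 6 for all 3 genes, and without it the median log2 fold change of the 3 was 0.0742 in place of 0.1523. The ratio of MUS81 to EME1 stayed between 2.67 and 3.17.

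FANCF, an adaptor of the Fanconi core complex (chromosome 11, 22622533 to 22625823), was at 3.36, 4.16 and 3.96 FPKM in sh-luc and 4.42, 4.59 and 4.04 FPKM in sh-IUR1. The groups overlapped between sh-luc r1 and sh-IUR1 r2. FANCF had a log2 fold change of 0.1508 (95% interval -0.0551 to 0.3568, unadjusted p = 0.134, adjusted p = 0.930, limma), and 0.0793 without the unnumbered sh-luc library. FANCA, another subunit of the complex, was at 22.04, 23.25 and 24.47 FPKM in sh-luc and 21.73, 21.76 and 25.62 FPKM in sh-IUR1, and its log2 fold change was -0.0158 (95% interval -0.1967 to 0.1651, adjusted p = 0.976, limma). The sign of this value turned when sh-luc r2, the unnumbered sh-IUR1 library or sh-IUR1 r1 was left out. FANCL, the ubiquitin ligase, lay between 17.04 and 19.28 FPKM. The anchor FANCM was at 1.06, 0.91 and 0.99 FPKM in sh-luc and at 1.42, 0.86 and 1.39 FPKM in sh-IUR1, so that the highest and the lowest value were both in sh-IUR1. For FANCB, FANCC, FANCE and FANCG the group means were 2.13 and 2.17, 9.48 and 9.49, 20.6 and 21.6, and 16.8 and 16.9 FPKM (sh-luc, then sh-IUR1). Of the 8 core genes 6 had a log2 fold change above 0, against 58.0% of all genes tested. Without the unnumbered sh-luc library 3 did so, against 52.7%.

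FANCD2 and FANCI form the clamp that the core complex ubiquitinates. FANCD2 was at 20.06, 22.18 and 19.93 FPKM in sh-luc and 21.59, 19.72 and 21.40 FPKM in sh-IUR1. FANCI was at 28.96, 32.57 and 29.65 FPKM in sh-luc and 31.54, 29.61 and 31.54 FPKM in sh-IUR1. The 2 genes moved together from library to library: the ratio of FANCI to FANCD2 was between 1.44 and 1.5 in all 6 libraries. The log2 fold change of FANCD2 was 0.0124 (95% interval -0.1487 to 0.1735, adjusted p = 0.980, limma), and its sign depended on the scaling and on single libraries. RefSeq lists 2 pseudogenes of FANCD2, whose reads could not be told apart here.

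Of the genes that assist the recombinase, RAD51C, a paralog of it that works with XRCC3 and with RAD51D and XRCC2, was at 90.48, 73.96 and 79.65 FPKM in sh-luc and 78.56, 79.33 and 80.63 FPKM in sh-IUR1. The spread was larger within sh-luc (SD 8.39 FPKM) than within sh-IUR1 (SD 1.05 FPKM), and the unnumbered sh-luc library was the highest. The log2 fold change was -0.0281 (adjusted p = 0.962, limma) and 0.0501 without that library. The other paralogs had their lowest value in that library. RAD51D was at 6.68 FPKM there and at 8.49 to 9.67 FPKM in the other 5, XRCC3 at 21.14 and at 25.30 to 27.65 FPKM, and XRCC2 at 17.87 and at 18.40 to 23.24 FPKM. RAD54L, a motor protein that opens the donor DNA, was at 34.75, 38.08 and 37.72 FPKM in sh-luc and 34.52, 33.68 and 38.94 FPKM in sh-IUR1, with a log2 fold change of -0.0456 (95% interval -0.2096 to 0.1184, adjusted p = 0.945, limma). With a library left out this value was between -0.1078 (without sh-IUR1 r2) and -0.0059 (without sh-IUR1 r1). The group means were 6.36 and 6.66 FPKM for its relative RAD54B and 2.87 and 3.18 FPKM for the annealing factor RAD52. The span of RAD51D overlaps a RefSeq readthrough gene, RAD51L3-RFFL, and its value is uncertain.

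BLM, RMI1 and RMI2 belong to the complex that dissolves double Holliday junctions. The helicase BLM was at 13.64, 12.49 and 10.64 FPKM in sh-luc and 12.30, 10.73 and 14.31 FPKM in sh-IUR1, with the controls inside the range of the knockdown libraries except for r2. RMI1 was at 5.90, 6.78 and 5.89 FPKM and at 7.24, 6.59 and 6.83 FPKM, with the groups overlapping only between sh-luc r1 and sh-IUR1 r1. RMI2 was at 35.35, 40.53 and 39.69 FPKM and at 42.75, 43.33 and 36.32 FPKM. None of the 3 was called by limma, also at an unadjusted p under 0.05.

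The checkpoint kinases signal damage to the cell cycle. ATM, activated by breaks, was at 6.83, 6.80 and 5.64 FPKM in sh-luc and 6.91, 7.17 and 6.77 FPKM in sh-IUR1. Only sh-IUR1 r2 was within the range of the controls, and the log2 fold change was 0.1028 (95% interval -0.0952 to 0.3007, adjusted p = 0.930, limma). It was 0.0244 without sh-luc r2, the control with the lowest ATM level. ATR, activated by single-stranded DNA, was at 3.38, 2.81 and 2.63 FPKM in sh-luc and 3.11, 2.54 and 3.32 FPKM in sh-IUR1, with a log2 fold change of 0.0177 (95% interval -0.2191 to 0.2546, adjusted p = 0.981, limma). The sign of that value changed with quantile normalization and with 4 of the 6 libraries left out in turn. CHEK1, the effector kinase of ATR, was the steadiest of the 38 genes, at 49.54, 50.28 and 49.60 FPKM in sh-luc and 52.35, 50.18 and 51.64 FPKM in sh-IUR1. Its log2 fold change was 0.0441 (95% interval -0.0786 to 0.1668, adjusted p = 0.932, limma). CHEK2, the effector kinase of ATM, was at 20.07, 18.86 and 20.79 FPKM in sh-luc and 19.41, 20.01 and 18.96 FPKM in sh-IUR1, with a log2 fold change of -0.0304 (95% interval -0.1805 to 0.1196, adjusted p = 0.954, limma), and between -0.0669 without sh-luc r1 and 0.0000 without sh-luc r2. RefSeq lists 6 pseudogenes of CHEK2, so this value is uncertain. TOPBP1, the activator of ATR, had group means of 14.5 and 14.4 FPKM.

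The differences between libraries of one group that are given here went with the GC content of the transcripts. Other pairs of libraries were not examined. The 38 transcripts had a median GC content of 41.9% and a median length of 4360 bases, against 49.0% and 3128 bases for 11923 genes tested with a canonical GENCODE transcript. Across the 38 genes, Spearman's rho between GC content and the difference of the unnumbered sh-luc library from the mean of r1 and r2 was -0.68. It was -0.55 for sh-IUR1 r2 minus r1. Across all genes with a value these were -0.37 and -0.34. The 5 genes lowest in the unnumbered sh-luc library relative to the other controls were RAD51D, XRCC3, EME1, SLX4 and FANCE, with 47.09% to 62.8% GC. The 5 genes highest in sh-IUR1 r2 relative to r1 were FANCB, BLM, FANCM, NBN and TOPBP1, with 36.76% to 41.94% GC. For the difference between the groups, rho was 0.01 across the 38 genes and 0.12 across all genes. With transcript length in place of GC content, rho across the 38 genes was 0.31, 0.38 and 0.14 for these differences, in the same order. Across all genes it was -0.09, 0.23 and 0.13. The points are genes of the same libraries and not independent, so these are descriptions without a test.

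Other genes of the same pathways did not show the uneven sign. Of 56 further genes of homologous recombination and the Fanconi pathway, among them cofactors, nucleases and checkpoint clamps, 56 were tested, 28 had a log2 fold change above 0 and 28 below, with a median of 0.0005, and 0 were called by limma, also at an unadjusted p under 0.05. The highest was NABP1, a single-stranded DNA binding protein, with 0.1843 (adjusted p = 0.930, limma), and the lowest CLSPN, the adaptor between ATR and CHEK1, with -0.1603 (adjusted p = 0.930, limma). Of the 56, 1 had no overlap between the groups, where 7.07% of all genes tested had no overlap. It was HUS1 of the checkpoint clamp, which was lower in sh-IUR1 and is named after its values were seen. For 17 genes of non-homologous end joining the median was 0.0133 with 10 above 0, and for 36 genes of mismatch, base and nucleotide excision repair it was 0.0079 with 20 above 0. The difference between these lists and the 38 genes was not tested.

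Since recombination genes are used around S phase, the lists of cycling genes are given beside them. Of 39 S phase genes 11 had a log2 fold change above 0, with a median of -0.0473, and of 42 genes of G2 and mitosis 14 did, with a median of -0.0729. With limma 0 genes of both lists were called, and at an unadjusted p under 0.05 there were 2 in the S phase list and 1 in the other. The 38 repair genes thus had a median of the opposite sign to both lists. Without the unnumbered sh-luc library the median was 0.0414 for the 38 genes, -0.0469 for S phase and 0.0021 for G2 and mitosis. By library, the median deviation of the 38 genes from their own mean was -0.0498, 0.0170 and -0.0302 for the controls, against 0.0465, -0.0404 and 0.0562 for the knockdown libraries. In sh-IUR1 r1 the S phase list (-0.1078) and the G2 and mitosis list (-0.1856) were at their lowest, and the 38 genes were at -0.0404. In the unnumbered sh-luc library the G2 and mitosis list was at its highest (0.1843) while the 38 genes were at their lowest. The part of cycling, of the stress genes or of GC content in the small differences between the groups was not tested.

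**Figure D3:**
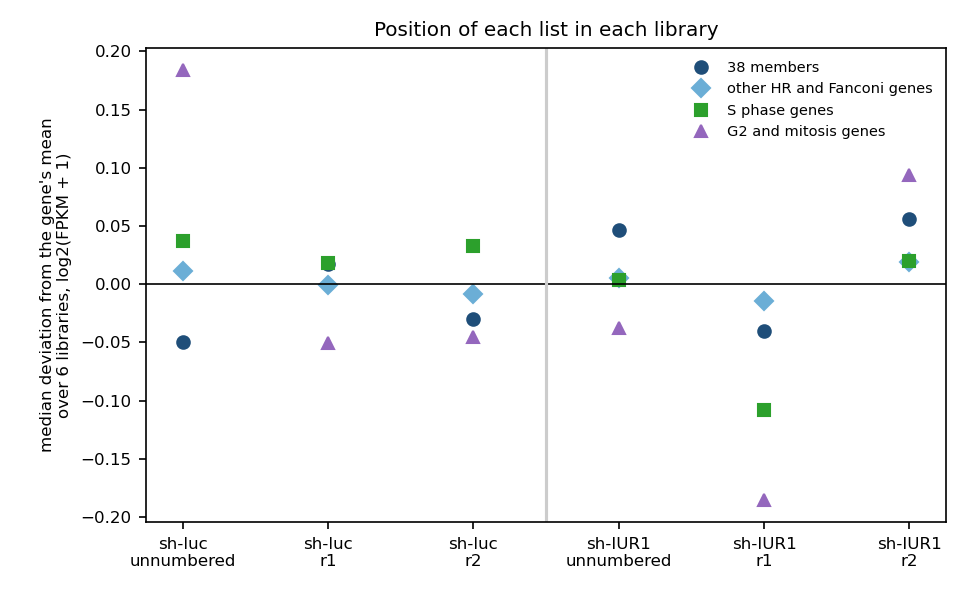
Median deviation of the genes of each list from their own mean over the 6 libraries, in log2(FPKM + 1), for the 38 genes, 56 other genes of the same pathways, S phase genes and genes of G2 and mitosis. The 38 genes are above 0 in sh-luc r1 and in the unnumbered and r2 sh-IUR1 libraries, and below 0 in the other 3, so the groups overlap.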

How the data were processed

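Total RNA of 6 K562 libraries was sequenced. According to the methods and the submitters' processing notes, reads were trimmed, masked for low-quality sequence, mapped to hg38 and turned into expression values with samtools 0.1.19; the aligner and annotation are not given in the sources used here. The deposited values used here are FPKM with 2 decimals, which the methods call RPKM. The authors also deposited a score (the z-score of FPKM per gene), a cluster number and a membership fraction, none of which was used. Only genes with an SD of at least 0.05 FPKM are in the table. Fragment counts were not recovered, so the depth behind a value is unknown here and precision rests on 3 libraries per group.

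Symbols were matched by Entrez identifier to RefSeq GRCh38.p14 (12363 of 12486 genes). RefSeq lists a pseudogene of their name for 6 members (BRCA1, FANCD2, CHEK2, MRE11, RAD52 and RBBP8), and 27 members overlap another RefSeq span. The values of all these members are uncertain to the extent that reads were shared. The test took genes whose mean reached 0.1 FPKM, on log2(FPKM + 1), with limma 3.58.1 in R 4.3.3 (eBayes with a trend). Fold changes on this scale understate changes of low genes. The step was checked on simulated data with independent noise, in which the changed genes differed by 1 on the log2 scale. That is larger than any change of the members, so the check does not cover changes of their size. GC content came from GENCODE release 44. Tables and plots were made in Python 3.11.15 (pandas 2.3.3). No pairing of libraries by replicate number was assumed. The members and lists were chosen with earlier results of these data known. A log2 fold change is printed for members without overlap, for the 4 with the smallest p among the higher and the 4 among the lower members, and for BRCA1, BRCA2, FANCA, FANCD2, ATM, ATR and CHEK1. Alternatives were another pseudocount, filter, scaling and variance moderation, a replicate block, and each library left out. The level of 1 lymphocyte marker is not reported here.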

Additional observations from a re-analysis of the deposited data

How the results depend on the processing

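With an adjusted p under 0.05 from limma, 0 of the 38 genes were called under every alternative (smaller pseudocount, no filter, a filter at 1 FPKM that removed BRCA2, 2 other scalings, no variance trend, a replicate block, each library left out). At an unadjusted p under 0.05 the count was between 0 and 2 with a library left out: RAD50 without the unnumbered sh-luc library, EME1 without sh-luc r1, and RAD50 and FANCM without sh-IUR1 r1, where 1.80%, 6.97% and 1.89% of all genes passed, in this order. The number of genes without overlap, 1 in the text, was 2 with quantile normalization (BRCA1 and CHEK1), where 6.97% of all genes had no overlap. It was between 2 and 10 with a library left out, settings in which 11.9% to 25.2% of all genes had no overlap. The 10 came without sh-IUR1 r1, where the share of all genes was 14.2%. The share of 25.2% was that without sh-IUR1 r2. The replicate block left the median log2 fold change at 0.0545, and all genes with an unadjusted p under 0.05 went from 325 to 533. Deviations of libraries with one number correlated at 0.385 (r1), -0.340 (r2) and 0.044 (no number). These correlations cannot show whether libraries with one number were handled together, so no pairing was assumed. Of 181 log2 fold changes of the 14 genes under alternatives, 15 reversed sign and 166 kept it, none with an adjusted p under 0.05; the cause was not tested. ATR was at -0.0273 with quantile normalization. FANCD2 was at -0.0074 with median-ratio scaling and -0.0076 with quantile normalization. With a library left out the log2 fold change ranged from -0.0421 to 0.1015 for ATR, from -0.0914 to 0.0225 for FANCA, from -0.0136 to 0.0600 for FANCD2 and from -0.0935 to 0.0501 for RAD51C. With 3 libraries per group an exact permutation test cannot give a p under 0.1, and changes smaller than the intervals given could not be detected.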
